A study of Mus musculus with 35 samples.

Results

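Genes for 41 proteins of the lysosome were followed across 35 mouse aorta transcriptomes: glycosidases, the enzymes that take glycosaminoglycans apart, proteases, lipid-handling enzymes and phosphatases, proteins of the lysosomal membrane, and the proteins that send hydrolases to the lysosome. The members were the rows of the deposited expression table whose gene symbol equals a listed name. All 41 names were found among the 14174 genes of the table, and all 41 were among the 14157 genes left after a filter on low values. Cathepsins, the proton pump and the sphingolipid-degrading enzymes were kept apart in a list of 46 other lysosome genes. That list also holds Neu1, Lipa, Npc1, Npc2, Mcoln1, Tfeb, Tfe3 and Mitf.

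The aortas came from C57BL/6 mice of 3 genotypes: wild type (WT), mice without apolipoprotein E (EKO), and EKO mice that in addition overexpress human apoA-I (EKO/hA-I). Apolipoprotein E is a ligand for the clearance of lipoprotein remnants, and apoA-I is the chief protein of high-density lipoprotein particles. Feeding with chow or with a Western diet (WD) began at 8 weeks of age and lasted 6 or 22 weeks, so that the labelled ages were 14 and 30 weeks. Duration of feeding and age therefore cannot be told apart wherever 6 and 22 weeks are compared below. The 12 groups had 3 libraries each, apart from the 2 of EKO/hA-I fed chow for 6 weeks. Y-linked transcripts were missing or nearly so in 12 libraries, found in every group but EKO/hA-I on chow for 22 weeks. The perfused vessel was described as sampled between the aortic root and the iliac bifurcation, without its surrounding fat. Adipocyte transcripts were present in every library all the same. The brown adipocyte marker Ucp1 ranged from 603 in EKO WD 22 weeks replicate 1 to 9750 in WT WD 6 weeks replicate 1. All groups but WT lack Apoe, and the promoter that drives the human transgene is not given in the sources used here.

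Lysosomes digest what a cell takes up or discards. Most soluble hydrolases receive a mannose 6-phosphate tag in the Golgi, are carried by mannose 6-phosphate receptors to endosomes, and act on glycoproteins, glycosaminoglycans, lipids and nucleic acids in the acid interior, while membrane proteins shield the membrane and export the products. In the atherosclerotic artery, macrophages that have taken up lipoproteins depend on this system to break down their cargo.

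Lysosomal genes are known to share a promoter element, called CLEAR, which holds the E-box CACGTG and is read by the transcription factor TFEB and its relatives. Start-site windows from RefSeq (GRCm38.p6) were found for 35 of the 41 members, and the 250 bases before the start were searched. Both motifs searched read the same on either strand, and the longer contains the shorter. CACGTG was present for 10 of the 35 members (28.6%), against 9.53% of the 10719 tested genes with a window and 6.86% of all 27025 genes of the promoter table. TCACGTGA was found for 5 members (14.3%), against 1.63% of the tested genes. A match describes letters in a window and is not shown to be a bound site.

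The 60 bases around the E-box nearest to the start site are printed for 5 members whose mRNA is described below as higher in EKO on WD for 22 weeks and for 2 whose difference did not pass there, so that both can be seen beside their values. Capitals mark each E-box, and each sequence runs 5′ to 3′ on the strand of the gene. The Lamp1 window lies at chr8:13159101-13159160 on the plus strand and holds 3 E-boxes, the nearest starting at position -15 from the start site. For Igf2r, at chr17:12769707-12769766 on the minus strand, 2 E-boxes are present and the nearest starts at -7. The Cln3 window is chr7:126583325-126583384 (minus strand, -121), that of Naglu chr11:101069994-101070053 (plus strand, -73) and that of Lgmn chr12:102439109-102439168 (minus strand, -49). Of the other pair, Cd164 lies at chr10:41519386-41519445 (plus strand, -87) and Sumf1 at chr6:108185584-108185643 (minus strand, -11).
Lamp1: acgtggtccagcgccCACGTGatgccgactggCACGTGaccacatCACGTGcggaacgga
Igf2r: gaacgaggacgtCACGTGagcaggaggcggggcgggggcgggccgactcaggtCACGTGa
Cln3: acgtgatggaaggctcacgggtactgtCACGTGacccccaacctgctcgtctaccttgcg
Naglu: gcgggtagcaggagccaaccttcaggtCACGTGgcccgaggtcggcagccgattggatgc
Lgmn: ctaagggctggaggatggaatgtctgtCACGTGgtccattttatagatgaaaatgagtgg
Cd164: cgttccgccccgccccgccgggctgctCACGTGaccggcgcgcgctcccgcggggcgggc
Sumf1: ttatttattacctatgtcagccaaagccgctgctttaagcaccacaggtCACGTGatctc

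The values are the authors' normalised signal per gene, on a scale on which a library adds to between 907492 and 1137737. The step between low values puts 6850000 to 25300000 reads behind a library, with a median of 15000000. Values are comparable for 1 gene between libraries, not between genes, because the table gives no gene lengths. Differences are log2 fold changes of value plus 1, with their standard error (SE) and a Benjamini-Hochberg adjusted p from limma over all 14157 genes, and a gene is said to have risen or fallen only at an adjusted p under 0.05. The p-values measure the spread between these samples, and in whole aortas a change in the number of cells of a type cannot be told apart from a change in RNA per cell. Apoe ranged from 415.6 to 1276 in WT and from 5.37 to 29.68 in the other genotypes, which checks the WT labels but cannot tell EKO from EKO/hA-I. WT WD 22 weeks replicate 3, whose genotype tag names EKO against its WT title, had an Apoe value of 540.4 and was kept as WT.

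**Figure D1:**
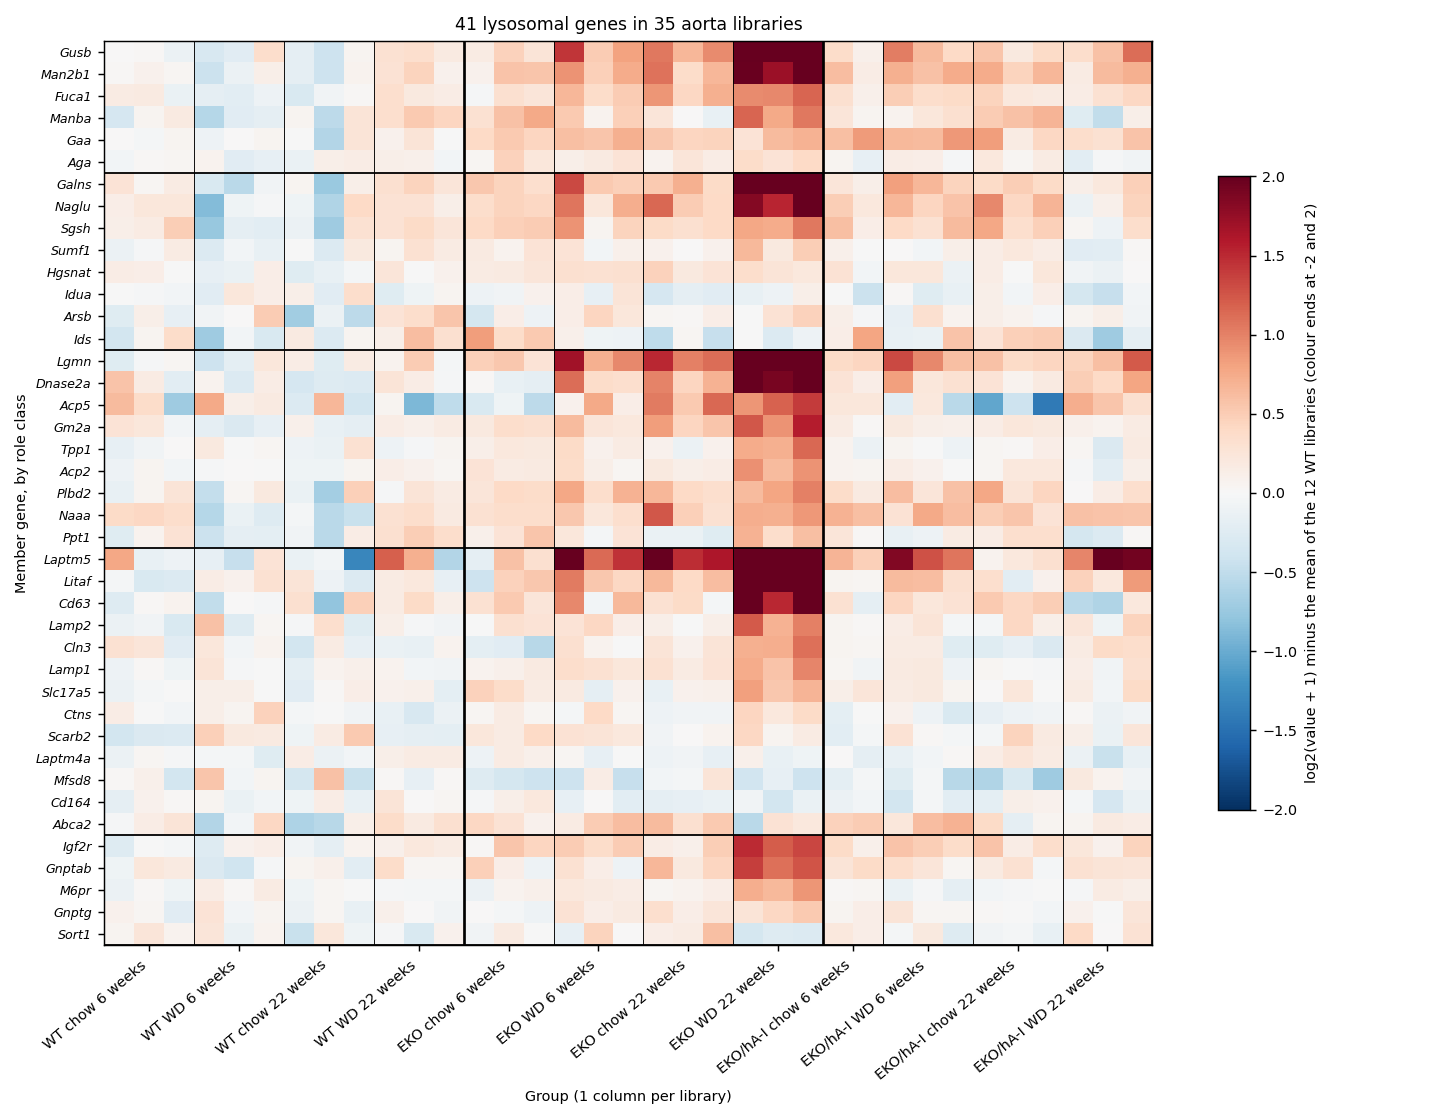
Level of each of the 41 members (rows, grouped by role) in each of the 35 libraries (columns, grouped by genotype, diet and weeks), as log2(value + 1) minus the mean of the 12 WT libraries. The colour scale ends at -2 and 2. The 3 columns of EKO on WD for 22 weeks are among the darkest for Gusb, Man2b1, Galns, Lgmn, Laptm5 and Litaf, while rows such as Idua, Laptm4a and Cd164 stay pale throughout.

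The summed level of the 41 members was highest in EKO aortas after 22 weeks of WD. Together they took 0.783 to 0.927% of the signal in those 3 libraries and 0.407 to 0.595% in the other 32. Against WT on the same diet and duration, 27 of the 41 rose and 0 fell (65.9%), while 22% of all tested genes passed, 14.8% rising and 7.2% falling. The median log2 difference was 0.68 over the 41 members and -0.01 over all tested genes. The values of EKO and WT did not overlap for 34 members, 30 of them higher and 4 lower in EKO, against 40.5% of all tested genes. Of the 46 other lysosome genes, 41 rose and 1 fell, with a median of 1.13.

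Macrophage markers moved with this result. All 14 listed markers rose in the same comparison (median log2 difference 3.09). Their summed value was 3051 to 3757 in EKO on WD at 22 weeks and 331.1 to 528.7 in WT, with 0 of the 14 at 0 in any library. With the mean of these markers as a term in the fit, 0 of the 41 members passed in limma, 12 had an unadjusted p under 0.05, and 11 of all tested genes passed. That mean itself differed by 2.77 on the log2 scale between the 2 groups, and the median SE over the members went from 0.16 to 0.35 with the term. The median difference over the 41 went from 0.68 to 0.44. Lgmn then differed by 2.03 ± 0.45, Gusb by 1.85 ± 0.40, Igf2r by 0.99 ± 0.31 and M6pr by 0.63 ± 0.17, Slc17a5 was at 0.68 in both fits, and Plbd2 went from 0.68 to 0.83. Laptm5 went from 3.60 to 0.63, Gm2a from 1.10 to 0.38 and Naaa from 0.49 to -0.25. Of the 27 members that rose, 10 had 2/3 or more of their difference with the term. The part of macrophage number in the members' differences was not tested beyond this term. Smooth muscle markers had a median of -1.18 with 2 of 8 falling, and 2 of 7 endothelium and 2 of 7 fibroblast markers rose; the part of these cell types was not tested.

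Among the 6 genes for glycosidases and glycoprotein breakdown, 5 rose. Gusb encodes beta-glucuronidase, which removes terminal glucuronic acid from glycosaminoglycan chains. It read 490, 442.8 and 580.7 in EKO and 67.59, 69.17 and 61.8 in WT on WD at 22 weeks. The log2 difference was 2.90 ± 0.21 (SE, adjusted p = 2.9e-10), a 7.48-fold higher level, and the lowest EKO library lay far above every WT library. Man2b1, the lysosomal alpha-mannosidase, read 339, 281.8 and 439.3 in EKO against 105.1, 117.1 and 91.24 in WT (1.73 ± 0.20, adjusted p = 1.5e-07). Fuca1, which removes fucose from glycoproteins, read 150.7, 151.7 and 176.1 against 98.56, 88.59 and 85.7 (0.80 ± 0.13, adjusted p = 2.3e-05). Both genes had separate ranges. Manba, the beta-mannosidase, changed less, from 37.6 to 42.71 in WT to 50.65 to 67.08 in EKO (0.57 ± 0.18, adjusted p = 0.027), and it lost the call when any 1 of 4 of the 6 libraries was left out, with adjusted p of 0.07 to 0.11. Aga, the aspartylglucosaminidase, rose by 0.29 ± 0.11 (adjusted p = 0.046). Gaa, which digests glycogen, read 168.1, 214.9 and 225.3 in EKO against 147.8, 166.6 and 138.7 in WT and did not pass (0.42 ± 0.16, adjusted p = 0.068), although its ranges were apart.

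The 8 genes listed for the breakdown of glycosaminoglycans and the activation of sulfatases were divided, with 2 rising and 6 not passing. Gusb, which rose and also acts on these chains, was counted with the glycosidases. Galns, a sulfatase of keratan and chondroitin sulfate, read 56.41, 45.65 and 80.35 in EKO against 12.8, 13.91 and 12.06 in WT (2.11 ± 0.21, adjusted p = 2.2e-08). Naglu, the alpha-N-acetylglucosaminidase of heparan sulfate, read 102.5, 82.37 and 116.1 against 34.52, 34.48 and 30.52 (1.56 ± 0.24, adjusted p = 1.9e-05). These 2 stood far outside the WT range in all 3 EKO libraries. The others of the heparan and dermatan sulfate pathway showed smaller differences of either sign. Sgsh, the heparan N-sulfatase, read 47.56 to 59.27 in EKO and 33.1 to 36.79 in WT (0.55 ± 0.21, adjusted p = 0.06). Hgsnat, which acetylates heparan sulfate in the lysosomal membrane, read 48.89 to 53.72 against 41.62 to 49.91 (0.17 ± 0.11, adjusted p = 0.29). Idua, the alpha-L-iduronidase, gave 41.8 to 50.33 and 39.14 to 48.15 (0.05 ± 0.15, adjusted p = 0.86). Ids, the iduronate sulfatase, had all EKO values below all WT values, 83.61 to 100.2 against 110.3 to 155.2, without passing (-0.48 ± 0.22, adjusted p = 0.13). Arsb, which removes sulfate from dermatan sulfate, gave 61.22 to 85.44 and 74.63 to 91.29 (-0.15 ± 0.16, adjusted p = 0.58). Sumf1, which activates every sulfatase by converting a cysteine in its active site, read 59.92 to 82.15 against 54.49 to 64.59 (0.26 ± 0.12, adjusted p = 0.12), and its ranges overlapped.

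**Figure D2:**
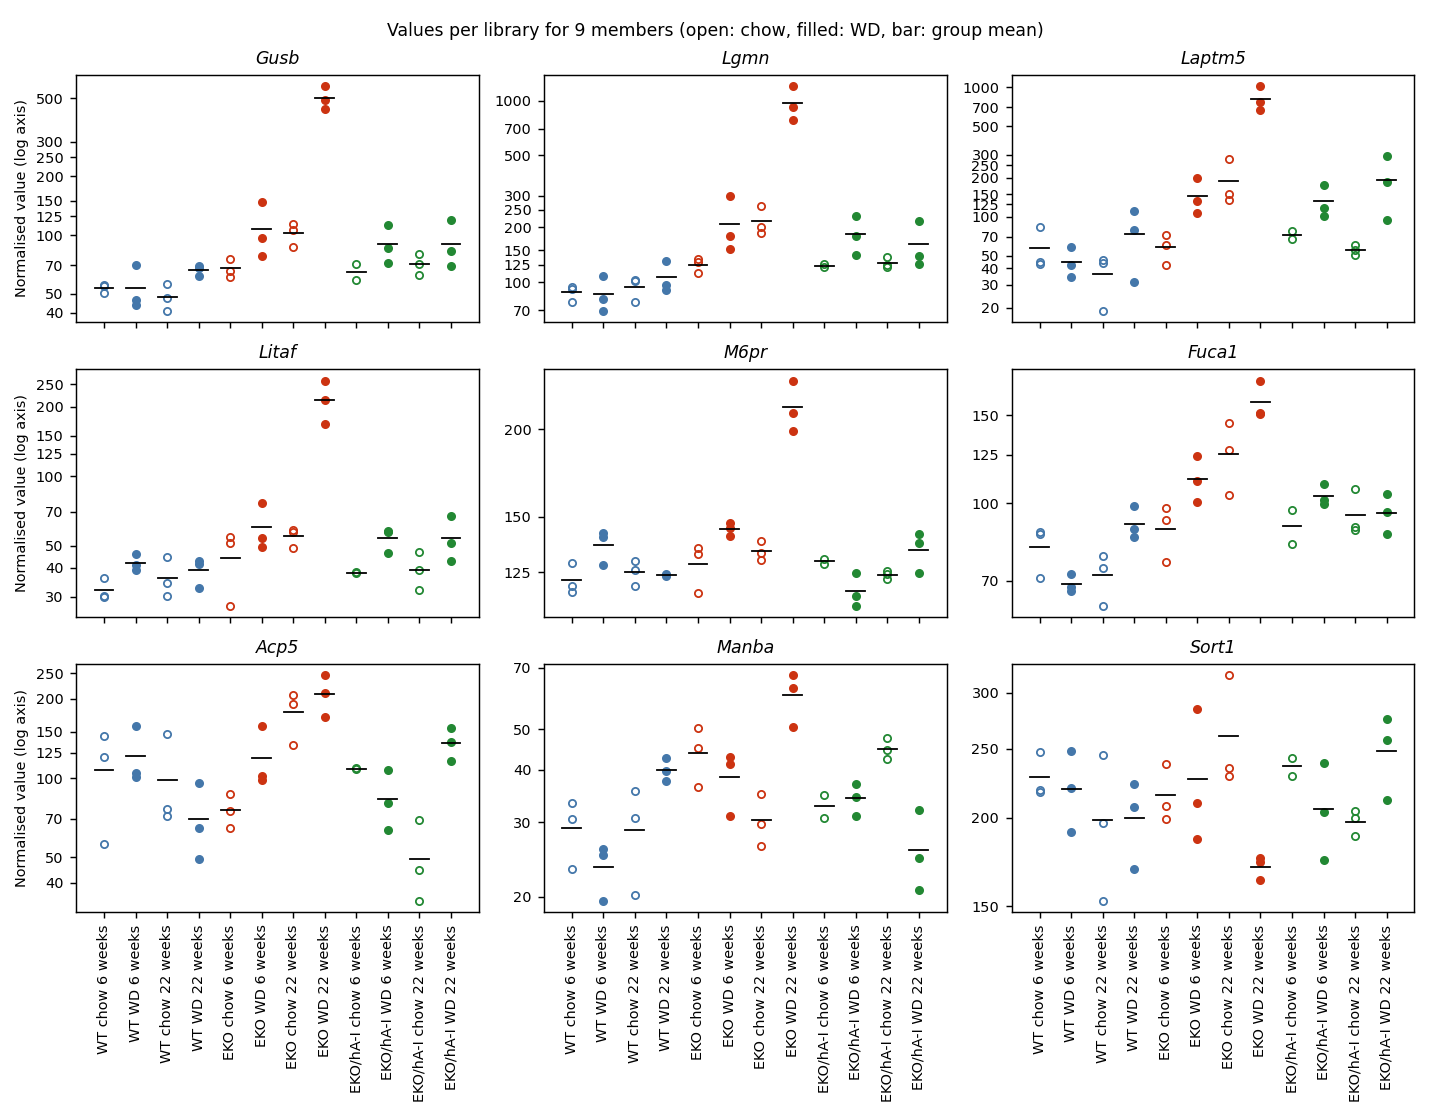
Normalised value in each library (points, log axis) for 9 members in the 12 groups, with open points for chow, filled points for WD and a bar at the group mean. For Gusb, Lgmn, Laptm5, Litaf and M6pr all 3 EKO libraries on WD at 22 weeks lie above every other library, while Sort1 is lower there than in EKO on chow.

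Of the 9 genes for proteases, phosphatases, a nuclease and lipid-handling enzymes, 8 rose. Lgmn encodes legumain, an asparaginyl endopeptidase that also processes cathepsins. Its values were 922.2, 777.5 and 1206 in EKO and 96.8, 131.4 and 89.94 in WT. The log2 difference was 3.17 ± 0.23 (adjusted p = 3.5e-10), or 9.03-fold, with no EKO library near the WT range. Dnase2a, the acid nuclease that digests DNA of engulfed cells, read 49.25, 45.7 and 63.19 against 14.02, 12.93 and 11.39 (1.95 ± 0.20, adjusted p = 3.6e-08). Gm2a, the activator that presents ganglioside GM2 to hexosaminidase, read 249.9, 198.1 and 313.8 against 116.9, 113.2 and 118.3 (1.10 ± 0.13, adjusted p = 4.9e-07). Acp2, a lysosomal acid phosphatase, read 138.9, 113.9 and 136.5 against 79.77, 77.13 and 74.9 (0.74 ± 0.09, adjusted p = 8.8e-07). All 3 had EKO values above every WT value. Acp5, the tartrate-resistant acid phosphatase, rose by 1.60 ± 0.32 (adjusted p = 0.00055), from 49.42 to 96.15 in WT to 171.2 to 245.8 in EKO. The tripeptidyl peptidase gene Tpp1 rose by 0.88, the phospholipase B-like gene Plbd2 by 0.68 and Naaa, which hydrolyses N-acylethanolamines, by 0.49. Ppt1, the palmitoyl-protein thioesterase, did not pass (0.16 ± 0.16, adjusted p = 0.52), with 121 to 153.8 in EKO and 118.1 to 134.2 in WT.

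For the membrane, 8 of 13 genes rose. Laptm5, a lysosomal membrane protein of blood-derived cells, had the largest difference of the 41, with 766.2, 660.8 and 1024 in EKO and 110.8, 79.53 and 31.72 in WT (3.60 ± 0.42, adjusted p = 2.8e-07). Litaf, which acts in the sorting of endosomal cargo, read 213, 167.6 and 259.6 against 41.72, 42.71 and 32.8 (2.41 ± 0.22, adjusted p = 4.6e-09). Cd63, a tetraspanin of late endosomes, read 707.5, 501.6 and 712.1 against 198.5, 229.3 and 191 (1.62 ± 0.27, adjusted p = 4.4e-05). All 3 genes were higher in every EKO library than in any WT library. In WT the spread of Laptm5 was wide, from 31.72 in replicate 3 to 110.8 in replicate 1. Lamp1, the most used marker protein of the lysosomal membrane, read 987.4, 880.1 and 1159 against 620.1, 566.9 and 566.2 (0.78 ± 0.13, adjusted p = 3.4e-05). The related Lamp2 rose by 0.97, the lipofuscinosis gene Cln3 by 0.92, the sialic acid exporter Slc17a5 by 0.68 and the cystine exporter Ctns by 0.54.

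The remaining 5 membrane genes did not pass, and 4 of them had negative differences. Scarb2, the receptor that carries glucocerebrosidase to the lysosome, read 305.4 to 394.4 in EKO and 258.2 to 263.6 in WT (0.39 ± 0.14, adjusted p = 0.052). Cd164, a sialomucin of endosomes and lysosomes, read 171 to 210.4 against 220.8 to 264.2 (-0.29 ± 0.12, adjusted p = 0.08). Laptm4a, a relative of Laptm5, read 438.3 to 517.6 against 525.8 to 544.6 (-0.20 ± 0.11, adjusted p = 0.24). In Cd164 and Laptm4a, as in the lipofuscinosis gene Mfsd8 (19.13 to 22.96 against 23.02 to 26.33, -0.28 ± 0.21, adjusted p = 0.39), every EKO value was below every WT value. Abca2, an ATP-binding cassette transporter of late endosomes, gave 92.11 to 164.9 and 152.2 to 174 (-0.30 ± 0.22, adjusted p = 0.38).

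Of the 5 genes that tag and sort hydrolases, 4 rose. Gnptab, which encodes the alpha and beta subunits of the enzyme that starts the mannose 6-phosphate tag, read 132.1, 108.5 and 121 against 64.97, 51.82 and 51.7 (1.09 ± 0.15, adjusted p = 3.6e-06). Gnptg, the gamma subunit, rose by 0.38 ± 0.10 (adjusted p = 0.0066), from 24.3 to 27.49 in WT to 30.68 to 36.95 in EKO. In the GENCODE vM21 annotation, 49.5% of the exon bases of Gnptg overlap Unkl on the opposite strand. The same holds for 48.2% in Arsb (Gm26527), 21.9% in Sgsh (Card14), 13.3% in Acp2 (Ddb2), 13.2% in Cln3 (Apobr), 8.6% in Plbd2 (Sds), 8% in Acp5 (6530413G14Rik) and 7.9% in Lamp1 (Grtp1), and for less than these in Gnptab, Sort1, Idua, Mfsd8 and Ppt1. Whether reads were counted by strand is not given in the sources used here, so reads of these genes and of their partners may not have been told apart. Both mannose 6-phosphate receptors rose. M6pr, the cation-dependent receptor, read 211.1, 198.8 and 234.6 against 124.3, 123.7 and 123.4 (0.79 ± 0.08, adjusted p = 1.9e-08). Igf2r, the cation-independent receptor, read 352.1, 288.4 and 314.1 against 133.9, 144.9 and 139.7 (1.18 ± 0.14, adjusted p = 4.5e-07). The 3 WT libraries differed little in M6pr, and for both receptors every EKO value was above every WT value. Sort1, the sortilin receptor that sorts independently of mannose 6-phosphate, did not pass (163.4 to 175.5 against 169.4 to 223.3, -0.22 ± 0.17, adjusted p = 0.40).

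The promoter windows can be read beside these differences. Of the 10 members with an E-box, 6 rose, with a median log2 difference of 0.67, and of the 25 without one 17 rose, with a median of 0.74. Lamp1, Igf2r, Cln3, Naglu and Lgmn, whose windows are printed above, were among the 6, and Cd164 and Sumf1 among those that did not pass. Gusb, Laptm5 and Litaf, with large differences, had none in the window. Of the 6 members without a window in the table, 4 rose.

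**Figure D3:**
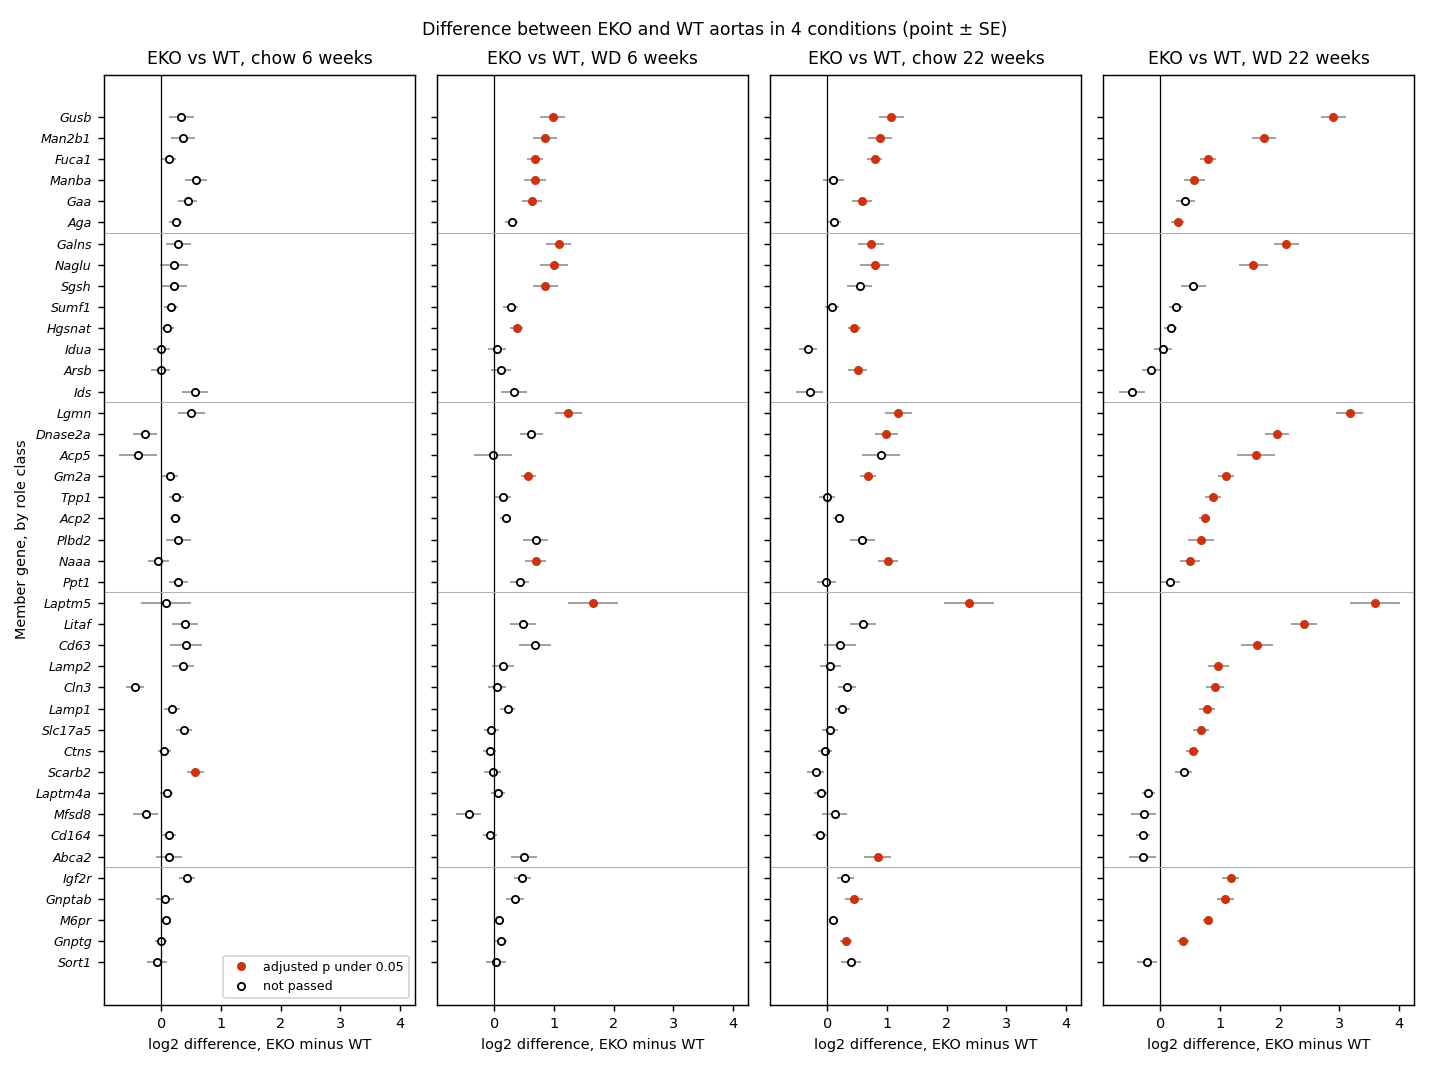
Log2 difference between EKO and WT (point, with a bar of 1 SE to each side) for the 41 members in 4 conditions, with filled points for an adjusted p under 0.05. On chow at 6 weeks 1 point is filled, on WD at 6 weeks 13, on chow at 22 weeks 16 and on WD at 22 weeks 27, and none of the filled points lies below 0.

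EKO and WT were compared in 3 further conditions, which share no library with each other or with the first. On chow for 22 weeks 16 members rose and 0 fell (39%, against 15.3% of all tested genes, 7.35% rising and 7.94% falling), with a median of 0.33 over the members and 0.03 over all genes. On WD for 6 weeks 13 rose and 0 fell (31.7%, against 5.44%, 3.94% rising and 1.5% falling), with medians of 0.35 and 0.01. On chow for 6 weeks 1 rose (2.44%, against 4.97%, 2.27% rising and 2.71% falling). There, Scarb2 read 343.5, 330 and 386.9 in EKO and 229.1, 240.8 and 243.9 in WT (0.57 ± 0.14, adjusted p = 0.026). It lost the call without WT replicate 1 or 2 or EKO replicate 2 or 3 (adjusted p 0.055 to 0.18), and without WT replicate 3 or EKO replicate 1 there were 4 members that passed. The median over the 41 was 0.18 on chow at 6 weeks.

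The genes that rose in 3 of the 4 conditions were 9: Lgmn, Gusb, Fuca1, Man2b1, Naglu, Galns, Laptm5, Gm2a and Naaa. The chow list at 22 weeks shared 12 genes with the WD list at 22 weeks, 75% of the chow list and 44.4% of the WD list. The WD list at 6 weeks shared 10 with the WD list at 22 weeks, 76.9% of the shorter and 37% of the longer. Gaa, Hgsnat, Arsb and Abca2 passed on chow at 22 weeks and did not pass on WD at 22 weeks. Conversely 15 genes, among them Lamp1, Lamp2, Tpp1, Cd63, M6pr, Igf2r and Litaf, passed at 22 weeks on WD and not on chow.

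On chow at 22 weeks, Fuca1 read 144.7, 104.1 and 127.6 in EKO against 62.3, 74.18 and 78.47 in WT (0.79 ± 0.13, adjusted p = 0.0002). Naaa read 74.81, 43.26 and 38.59 against 30.09, 20.88 and 22.53 (1.02 ± 0.17, adjusted p = 0.00025). Laptm5 read 280, 135.8 and 149.7 against 43.72, 46.1 and 18.8 (2.37 ± 0.42, adjusted p = 0.00057), and Gm2a 189.1, 142.4 and 154.7 against 113.1, 94.96 and 92.47 (0.68 ± 0.13, adjusted p = 0.0014). The ranges of all 4 genes were apart, as were those of 25.3% of all tested genes. In each, EKO replicate 1 was the highest library. The same library had the highest macrophage marker sum of its group, 1392, with the other two at 643.2 and 742.3, and WT at 220.2 to 317.3. Y-linked transcripts were missing or nearly so in EKO replicates 1 and 2 and in WT replicate 1. Without EKO replicate 1, 8 members passed in place of 16. With the macrophage term 0 members passed in limma (4 at an unadjusted p under 0.05), and 11 of all tested genes did. The macrophage mean itself was 1.68 higher in EKO. The median over the members was 0.15 with the term. Abca2 went from 0.84 to 1.08 with the term, Gaa from 0.58 to 0.71 and Arsb from 0.51 to 0.38, while Laptm5 went from 2.37 to 0.57 and Gm2a from 0.68 to 0.25. Fibroblast markers rose for 4 of 7 (median 0.94) and white adipocyte markers for 2 of 5, and their part was not tested. In a fit of these 2 groups alone 0 passed (17 at an unadjusted p under 0.05), and 11 of all tested genes did.

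On WD at 6 weeks, Lgmn read 297, 151.4 and 180.3 in EKO against 69.34, 80.68 and 108.2 in WT (1.24 ± 0.23, adjusted p = 0.0046). Gusb read 148, 78.39 and 96.37 against 43.7, 46.48 and 70.27 (0.98 ± 0.21, adjusted p = 0.0086). Galns read 26.5, 14.74 and 14.32 against 7.89, 6.558 and 9.474 (1.08 ± 0.21, adjusted p = 0.0052). Fuca1 read 124.1, 100.4 and 110.6 against 68.09, 66.57 and 72.23 (0.68 ± 0.13, adjusted p = 0.0039). All 4 genes had separate ranges, as had 24.9% of all tested genes, and EKO replicate 1 was the highest in each. Y-linked transcripts averaged 1.33 in WT replicate 1, against 47.7 and 46.44 in the other WT libraries. They averaged 0.096 in EKO replicate 1, against 58.67 and 45.49 in the other EKO libraries. That library also had the highest macrophage marker sum of its group, 876.6, against 644.7 and 676.5 in the other EKO libraries and 261.7 to 427.1 in WT. Of the macrophage markers 5 of 14 rose (median 1.26), and all 7 fibroblast markers rose (median 1.37), with sums of 4160 to 6479 in EKO and 1385 to 2378 in WT. The part of the fibroblasts in the members' differences was not tested. Without EKO replicate 1, 1 member passed, without WT replicate 1 there were 2, and without WT replicate 2 or EKO replicate 3 there were 8. Lgmn and Gusb lost the call without EKO replicate 1 or WT replicate 1 (adjusted p 0.051 to 0.1), and Galns without EKO replicate 1 (adjusted p = 0.062). With the macrophage term 0 passed in limma (14 at an unadjusted p under 0.05), and likewise in a fit of these 2 groups alone (19 at an unadjusted p under 0.05), while with terms for brown adipocyte and skeletal muscle markers 3 did. Of all tested genes 7 passed with the macrophage term and 9 in the fit of these 2 groups alone. Under the macrophage term Sgsh went from 0.85 to 0.87, Gaa from 0.63 to 0.72, Manba from 0.68 to 0.59 and Galns from 1.08 to 0.84, while Lgmn went from 1.24 to 0.76 and Laptm5 from 1.65 to 0.42. The median over the members went from 0.35 to 0.18. The part of macrophage number was not tested beyond that term.

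Whether the difference between EKO and WT itself depended on diet or duration was tested as an interaction. The EKO minus WT difference at 22 weeks was larger on WD than on chow for 13 members and smaller for 1 (34.1%, against 6.21% of all tested genes, 4.99% larger and 1.21% smaller). It was larger by 1.99 ± 0.33 for Lgmn (adjusted p = 0.00055), by 1.83 ± 0.30 for Gusb (adjusted p = 0.00042), by 1.81 ± 0.31 for Litaf (adjusted p = 0.0006) and by 0.69 ± 0.11 for M6pr (adjusted p = 0.0004). Abca2 went the other way, by -1.14 ± 0.32 (adjusted p = 0.03). On chow it read 167.1 to 207.8 in EKO and 86.85 to 145.8 in WT, and on WD 92.11 to 164.9 in EKO and 152.2 to 174 in WT. The Abca2 call was lost without any 1 of 7 libraries (adjusted p 0.056 to 0.12). On WD, the difference was larger at 22 than at 6 weeks for 18 members and smaller for 0 (43.9%, against 8.64%, 5.87% larger and 2.77% smaller). For Gusb it was larger by 1.93 ± 0.30 (adjusted p = 0.00022), for M6pr by 0.71 ± 0.11 (adjusted p = 0.00022), for Litaf by 1.92 ± 0.31 (adjusted p = 0.00028) and for Lgmn by 1.94 ± 0.33 (adjusted p = 0.00053). The first interaction was passed by 5 members with the macrophage term (Lgmn, Gusb, Tpp1, M6pr and Litaf) and the second by 1 (M6pr). The shares of all tested genes that passed with the term are not given here, so these counts have no background beside them. Without WT WD 22 weeks replicate 3 or EKO WD 22 weeks replicate 1 or 3, 8 or 9 members passed the first. Without WT WD 6 weeks replicate 3, WT WD 22 weeks replicate 2 or 3, EKO WD 6 weeks replicate 3 or EKO WD 22 weeks replicate 3, 10 or 11 passed the second.

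Within EKO at 22 weeks, WD against chow gave 23 rises and 1 fall (58.5%, against 18.7% of all tested genes, 13.9% rising and 4.8% falling), with a median of 0.51 over the members and 0.02 over all genes. Gusb went from 114.4, 87.21 and 105.8 on chow to 490, 442.8 and 580.7 on WD (2.29 ± 0.21, adjusted p = 7.5e-08). Lgmn went from 263.3, 185.7 and 201.8 to 922.2, 777.5 and 1206 (2.15 ± 0.23, adjusted p = 5.2e-07). Galns went from 14.83, 16.96 and 13.38 to 56.41, 45.65 and 80.35 (1.91 ± 0.21, adjusted p = 5.8e-07). In each, the lowest library on WD was above the highest on chow (ranges were apart for 30 members and 37% of all tested genes). Litaf, from 58.39, 49 and 57.11 to 213, 167.6 and 259.6, behaved alike (1.92 ± 0.22, adjusted p = 7.2e-07). Sort1 was the member that fell, from 228.7, 234.7 and 317.2 to 163.4, 175.5 and 173 (-0.59 ± 0.17, adjusted p = 0.015), and it did not pass without EKO chow replicate 3 (adjusted p = 0.12) or EKO WD replicate 1 (adjusted p = 0.065). All 14 macrophage markers rose here too, with sums of 643.2 to 1392 on chow and 3051 to 3757 on WD. There were 5 members that passed with the macrophage term: Lgmn, Gusb, Galns, M6pr and Igf2r. The share of all tested genes that passed with it is not given here, so this count has no background beside it. The macrophage mean differed by 1.81, and the median SE over the members was 0.26 with the term. The median difference over the members went from 0.51 to 0.36. Fibroblast markers rose for 3 of 7 and white adipocyte markers fell for 3 of 5, and their part was not tested.

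In WT at 22 weeks, 1 member rose on WD (2.44%, against 1.36% of all tested genes, 0.925% rising and 0.438% falling). At an unadjusted p under 0.05 in limma were 14 of 41 members (34.1%) and 16.2% of all genes. The median was 0.20 over the members and 0.01 over all genes. Ranges were apart for 15 members, 13 of them higher on WD, against 16.9% of all tested genes. Arsb, the sulfatase of dermatan sulfate, read 74.63, 78.95 and 91.29 on WD and 38, 56.92 and 42.94 on chow (0.83 ± 0.16, adjusted p = 0.012), with ranges apart. It did not pass without WT chow replicate 3 (adjusted p = 0.05) or WT WD replicate 2 (adjusted p = 0.059), nor in a fit of these 2 groups alone. In that fit 0 members passed in limma and 8 had an unadjusted p under 0.05, but 0 of all tested genes passed either. Without WT chow replicate 1 there were 2 that passed. In limma 0 members passed with the macrophage term, with 7 at an unadjusted p under 0.05, and 13 of all tested genes passed. Of the markers, 2 of 7 for fibroblasts and 1 of 14 for macrophages rose.

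From 6 to 22 weeks on WD, 21 members rose in EKO and 0 fell (51.2%, against 13.4% of all tested genes, 10.5% rising and 2.97% falling). Gusb read 107.6 ± 36.15 at 6 weeks (SD, n = 3) and 504.5 ± 70.1 at 22 weeks (2.26 ± 0.21, adjusted p = 6.5e-08). Lgmn, Litaf and Galns rose by 2.24, 1.81 and 1.68, from means of 209.5, 60.07 and 18.52. For each of the 4, the 22-week values were above all 6-week values. Ranges were apart for 25 members and for 29.7% of all tested genes. The macrophage markers rose for 13 of 14, and with the macrophage term 0 members passed in limma, with 14 at an unadjusted p under 0.05. Of all tested genes 12 passed with that term. The median over the members went from 0.51 to 0.33 with the term. Slc17a5 was at 0.65 in both fits, M6pr went from 0.57 to 0.45, Igf2r from 0.88 to 0.73 and Gusb from 2.26 to 1.47, while Laptm5 went from 2.50 to 0.27. Smooth muscle markers fell for 3 of 8 (median -1.25), and their part was not tested.

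In WT over the same interval 4 members rose and 2 fell (14.6%, against 6.68%, 3.21% rising and 3.46% falling). Ppt1 read 70.06, 83.43 and 82.23 at 6 weeks and 118.1, 134.2 and 120.6 at 22 weeks (0.66 ± 0.16, adjusted p = 0.016), and Manba 19.57, 25.15 and 25.88 against 37.6, 42.71 and 39.86 (0.75 ± 0.18, adjusted p = 0.019). Naaa rose by 0.60 ± 0.17 (adjusted p = 0.033) and Sgsh by 0.69 ± 0.21 (adjusted p = 0.047). Ctns fell by 0.40, from 26.81 to 35.6 at 6 weeks to 20.29 to 23.68 at 22 weeks (adjusted p = 0.035), and Scarb2 fell by 0.46, from 333.7 to 409.7 to 258.2 to 263.6 (adjusted p = 0.049). Ranges did not overlap for these 6 genes, for 18 members in all and for 33.3% of all tested genes. Same-numbered libraries deviated together in this comparison, and with the replicate number as a block Scarb2 had an adjusted p of 0.053. Fibroblast markers rose for 5 of 7 (median 1.31) and endothelium markers fell for 3 of 7 (median -0.35) in the same comparison, and their part was not tested. Brown adipocyte markers had a median of -1.21 with 1 of 7 falling. With the macrophage term in limma, Manba (0.71, adjusted p = 0.039), Ppt1 (0.67, adjusted p = 0.025) and Ctns (-0.43, adjusted p = 0.042) still passed. Ids passed only with that term (0.85, adjusted p = 0.029), while Sgsh, Naaa and Scarb2 did not (adjusted p 0.067 to 0.086). The share of all tested genes that passed with it is not given here. With terms for brown adipocyte and skeletal muscle markers 0 members passed in limma (4 of all tested genes did), with 5 members at an unadjusted p under 0.05. Without WT WD 6 weeks replicate 1 or WT WD 22 weeks replicate 2 there were likewise 0, and 2 passed without WT WD 6 weeks replicate 3, without WT WD 22 weeks replicate 1 or in a fit of these 2 groups alone. In EKO/hA-I 0 members passed in limma between 6 and 22 weeks on WD (0.0706% of all genes did, 0.0424% rising and 0.0283% falling), with 5 of 41 members (12.2%) and 20.2% of all genes at an unadjusted p under 0.05.

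**Figure D4:**
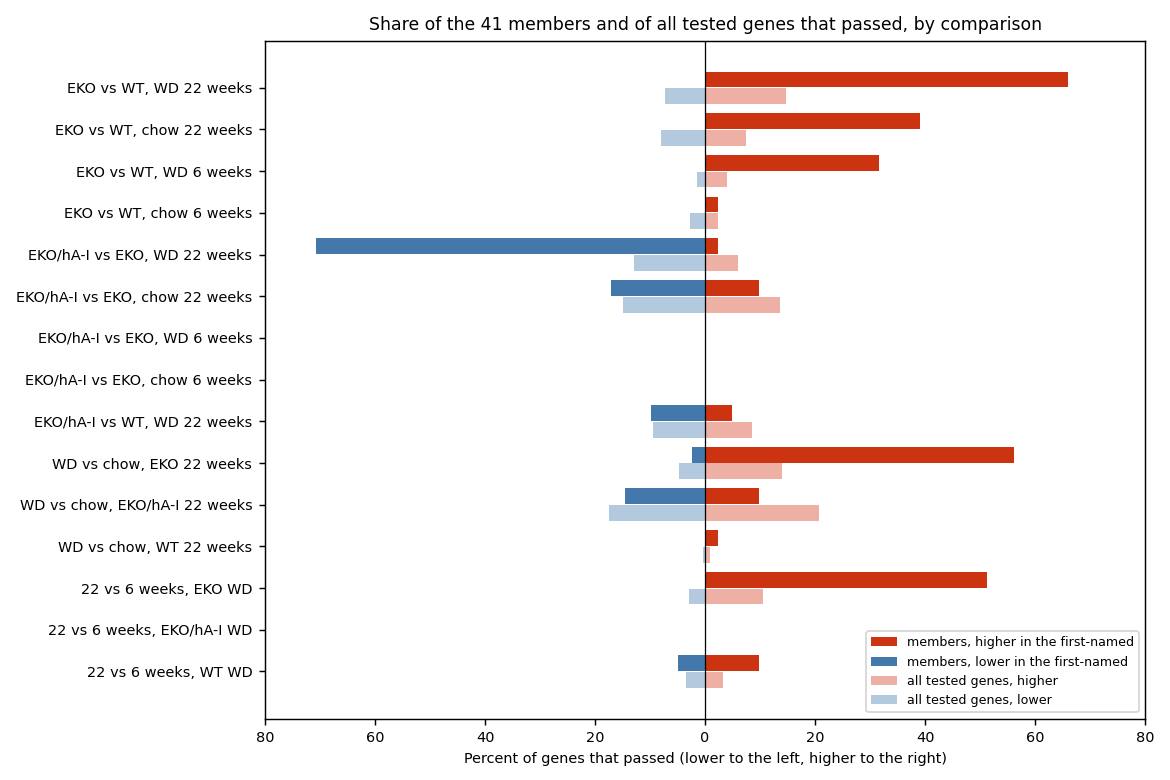
Share of genes that passed in each comparison of 2 groups, in percent, with higher to the right and lower to the left of 0. Dark bars are the 41 members and pale bars all 14157 tested genes. In both directions together, the members exceed all genes most where EKO on WD at 22 weeks is compared with WT, EKO/hA-I or chow. Their share is lower than that of all genes between EKO/hA-I and EKO on chow at 22 weeks. It is also lower between EKO/hA-I and WT on WD at 22 weeks and between the diets in EKO/hA-I. The same holds between EKO and WT on chow at 6 weeks. No member passes between EKO/hA-I and EKO at 6 weeks or between the durations in EKO/hA-I on WD.

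After 22 weeks of WD, most members had lower levels in EKO/hA-I aortas than in those of EKO. Between EKO/hA-I and EKO, 29 fell and 1 rose (73.2%, against 18.8% of all tested genes, 12.9% falling and 5.96% rising). The median was -0.65 over the members and -0.02 over all genes. This comparison uses the same 3 EKO libraries as the first, so the 2 sets of differences are not independent of each other. Gusb read 69.53, 82.6 and 119.2 in EKO/hA-I (-2.49 ± 0.21, adjusted p = 9.3e-09) against 490, 442.8 and 580.7 in EKO. Lgmn read 125.8, 140.1 and 218.2 (-2.60 ± 0.23, adjusted p = 2e-08), and Galns 10.9, 11.74 and 14.28 (-2.18 ± 0.21, adjusted p = 6.6e-08). Acp2 read 71.5, 62.8 and 79.51 (-0.86 ± 0.09, adjusted p = 2.8e-07). For these 4 genes every EKO/hA-I library was below every EKO library. Ranges were apart for 33 members and for 40.6% of all tested genes.

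By role, 5 of 6 glycosidase genes fell, 5 of 8 for glycosaminoglycan breakdown, 7 of 9 for proteases and other hydrolases, 8 of 13 for the membrane and 4 of 5 for sorting. M6pr fell by 0.67, Igf2r by 1.09, Gnptab by 0.97 and Lamp1 by 0.63. Sumf1 fell by 0.58 (adjusted p = 0.00092) and Ppt1 by 0.74 (adjusted p = 0.0013). Sort1 rose, from 163.4, 175.5 and 173 in EKO to 275.4, 211.5 and 257.3 in EKO/hA-I (0.53 ± 0.17, adjusted p = 0.029). That call was lost without EKO replicate 1 or 3 or EKO/hA-I replicate 1 or 3 (adjusted p 0.064 to 0.13). Of the macrophage markers 13 of 14 fell, with sums of 761.1 to 1316 in EKO/hA-I, and 2 of 7 fibroblast markers fell. There were 11 members that passed with the macrophage term: Lgmn, Gusb, Manba, Galns, Tpp1, Cd63, M6pr, Igf2r, Acp2, Gm2a and Litaf. The share of all tested genes that passed with this term is not given here, so the count has no background beside it. The median over the 41 was -0.52 with the term. Skeletal muscle markers were higher in the EKO/hA-I libraries, with 6 of 8 rising, and summed to 878.2 to 3012 against 23 to 120.1 in EKO. Their part in these differences was not tested beyond a fit with brown adipocyte and skeletal muscle terms. The number of members that passed in that fit is not given here.

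Against WT on WD at 22 weeks, EKO/hA-I aortas had 2 members that rose and 4 that fell (14.6%, against 18% of all tested genes, 8.51% rising and 9.46% falling). Laptm5 read 95.23, 295.7 and 185.2 in EKO/hA-I and 110.8, 79.53 and 31.72 in WT (1.39 ± 0.42, adjusted p = 0.025), with overlapping ranges. Acp5 read 154.4, 136.9 and 115.8 against 96.15, 49.42 and 64.74 (0.99 ± 0.32, adjusted p = 0.036). Those that fell were Ids (-0.75), Manba (-0.63), Ppt1 (-0.58) and Laptm4a (-0.39), with adjusted p of 0.014 to 0.023. For Acp5 and the 4 that fell, the ranges were apart, as they were for 44.4% of all tested genes. Each of the 6 lost its call without at least 1 library: 0 members passed without WT replicate 2 or EKO/hA-I replicate 2, 1 without WT replicate 3 and 3 without EKO/hA-I replicate 1. Acp5, for example, had adjusted p of 0.094 to 0.18 without 1 of 4 libraries. With the macrophage term 0 passed in limma (7 at an unadjusted p under 0.05), and with terms for brown adipocyte and skeletal muscle markers 0 passed (10 at an unadjusted p under 0.05). Of all tested genes 88 passed with the former term and 331 with the latter. Macrophage markers rose for 10 of 14 and smooth muscle markers fell for 6 of 8 between these groups.

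On chow at 22 weeks, EKO/hA-I against EKO gave 4 rises and 7 falls (26.8%, against 28.6% of all tested genes, 13.7% rising and 14.9% falling), a share near that of all genes. Acp5 read 44.57, 69.46 and 34.21 in EKO/hA-I against 191.8, 133.9 and 207.7 in EKO (-1.86 ± 0.32, adjusted p = 0.00049). Laptm5 read 50.53, 55.51 and 60.28 against 280, 135.8 and 149.7 (-1.67 ± 0.42, adjusted p = 0.0056). Lgmn read 138.2, 120.9 and 124.4 against 263.3, 185.7 and 201.8 (-0.74 ± 0.23, adjusted p = 0.02). All 3 genes had EKO/hA-I values below all EKO values, and the ranges of 45% of all tested genes were apart in either direction. Ids rose from 70.55, 103.9 and 73.49 to 123.3, 141.4 and 144.9 (0.74 ± 0.22, adjusted p = 0.016), Manba by 0.56 ± 0.18 (adjusted p = 0.026), Ppt1 by 0.44 ± 0.16 (adjusted p = 0.036) and Laptm4a by 0.30 ± 0.11 (adjusted p = 0.048). Of these, all but Acp5 and Laptm5 lost the call in at least 1 fit that left out a library, and the number passing ranged from 2 without EKO/hA-I replicate 3 to 9. It was 3 without EKO replicate 1, 4 without EKO replicate 3, and 7 and 5 without EKO/hA-I replicates 1 and 2. Between these groups 7 of 14 macrophage, 4 of 7 brown adipocyte and all 5 white adipocyte markers fell (white adipocyte median -1.78), while 3 of 7 fibroblast markers rose. The part of white adipocytes and fibroblasts was not tested. Y-linked transcripts were missing from 2 of the 3 EKO libraries and present in all 3 EKO/hA-I libraries (median difference 3.39), and with a term for libraries without them 7 members passed. With the macrophage term 1 member passed (Acp5), and with brown adipocyte and skeletal muscle terms 2 did. The shares of all tested genes that passed with these terms are not given here.

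Diet within EKO/hA-I at 22 weeks gave 4 rises and 6 falls (24.4%, against 38.2% of all tested genes, 20.7% rising and 17.5% falling), a smaller share than among all genes. Acp5 rose from 44.57, 69.46 and 34.21 on chow to 154.4, 136.9 and 115.8 on WD (1.49 ± 0.32, adjusted p = 0.0017), and Laptm5 from 50.53, 55.51 and 60.28 to 95.23, 295.7 and 185.2 (1.63 ± 0.42, adjusted p = 0.0046). Cln3 rose by 0.53 ± 0.15 (adjusted p = 0.0082) and Mfsd8 by 0.60 ± 0.21 (adjusted p = 0.027). Manba fell from 42.52, 44.52 and 47.62 to 24.65, 20.76 and 32.18 (-0.79 ± 0.18, adjusted p = 0.0025). Laptm4a fell from 534.4, 572.3 and 543.7 to 446.4, 355.9 and 435.6 (-0.42 ± 0.11, adjusted p = 0.0058). The ranges of these 6 genes were apart. Without EKO/hA-I chow replicate 3 or EKO/hA-I WD replicate 1 there were 6 members that passed, and without EKO/hA-I WD replicate 2 there were 5. Mfsd8 lost the call without any 1 of 4 libraries (adjusted p 0.068 to 0.11), and Laptm4a without EKO/hA-I WD replicate 2 (adjusted p = 0.054). All 8 skeletal muscle markers rose and 7 of 8 smooth muscle markers fell between the same libraries. Macrophage markers rose for 7 of 14, brown adipocyte markers for 5 of 7 and white adipocyte markers for 3 of 5, while fibroblast markers fell for 4 of 7. Given the macrophage term, 4 members passed in place of 10 (Manba, Laptm4a, Acp5 and Hgsnat, the last of which had not passed without it), and with brown adipocyte and skeletal muscle terms 0 members passed in limma, with 4 at an unadjusted p under 0.05. Of all tested genes 2 passed with the brown adipocyte and skeletal muscle terms. How many passed with the macrophage term is not given here.

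After 6 weeks, 0 members passed between EKO/hA-I and EKO in limma on either diet. On WD, 0.0706% of all genes passed (0.0283% rising and 0.0424% falling). At an unadjusted p under 0.05 were 2 of 41 members (4.88%) and 5.28% of all genes, and the median was -0.13 over the members. On chow, with 2 EKO/hA-I libraries, 0.0777% of all genes passed (0.0353% rising and 0.0424% falling). There 3 of 41 members (7.32%) and 13.1% of all genes had an unadjusted p under 0.05, and the median was -0.09. Gusb, for example, read 112, 85.57 and 71.89 in EKO/hA-I on WD and 148, 78.39 and 96.37 in EKO, so that the ranges overlapped.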

How the data were processed

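RNA-seq of whole aorta was used from 35 libraries in 12 groups, assigned by sample title. The authors deposited 1 table of normalised signal per gene. The kind of normalisation and the strand of counting are not given in the sources used here. Per the submitters' processing notes, Bowtie 0.12.2, Bowtie2 and RSEM and the builds mm8 and mm9 were used, with no role or order stated. Library totals were 907492 to 1137737. Steps between low values gave 6850000 to 25300000 reads per library, but 71.6 to 82.1% of low values came out as whole reads (tolerance 0.02 reads), so read counts were not recovered and counting intervals were not computed. There were 0 columns of other samples.

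Genes had to reach a value of 1 in 3 or more libraries (14157 of 14174 did, and 17 were removed). Values were analysed as log2(value + 1), a scale that understates changes of low genes, with limma 3.58.1 in R 4.3.3 (trend and robust options) in 1 fit of all 12 groups. Two-sided p-values were adjusted by Benjamini-Hochberg over all tested genes, with a threshold of 0.05, in 15 comparisons of 2 groups and 2 interactions. The scripts were tested on simulated data.

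The members and lists were chosen with earlier results of these data known. Values are given, for EKO against WT on WD at 22 weeks, for up to 4 members per role class of smallest p, every member that passed in the other direction and every member that did not pass. For each other comparison, they are given for up to 4 members of smallest p and up to 4 in the direction that fewer members took. Further members, such as Gusb in the comparisons where none passed, were named after their values were seen.

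Alternatives were pseudocounts of 0.1 and 5, no filter, a fit of only the groups compared, the replicate number as a block, terms for the macrophage markers or for brown adipocyte and skeletal muscle markers, median-ratio rescaling (factors 0.973 to 1.02), a term that marks the 12 libraries with no Y-linked transcripts, and each library left out in turn. No label states that replicate numbers pair libraries. Deviations of same-numbered libraries from their group means correlated above 0.1 in every pair only between 22 and 6 weeks on WD, in EKO (0.12 to 0.44) and WT (0.13 to 0.34). Promoter windows came from RefSeq (GRCm38.p6), and exon overlaps from GENCODE vM21, by gene name; both builds differ from those of the notes, and no coordinate was carried over.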

Additional observations from a re-analysis of the deposited data

Results flagged for a closer look

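The difference between EKO and WT itself differed between the diets and between the durations, as tested by interaction terms in limma (adjusted p under 0.05 over all genes). Between WD and chow at 22 weeks this held for 14 members (34.1%, against 6.21% of all tested genes). On the log2 scale the EKO minus WT difference was larger on WD by 1.99 for Lgmn, 1.83 for Gusb, 1.81 for Litaf and 0.69 for M6pr, and for Abca2 it differed by -1.14. Between 22 and 6 weeks on WD it held for 18 members (43.9%, against 8.64% of all tested genes), with 1.94 for Lgmn, 1.93 for Gusb, 1.92 for Litaf and 0.71 for M6pr. Both tests use the same EKO and WT libraries on WD at 22 weeks, so the 2 sets of values are not independent of each other.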

How the results depend on the processing

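Counts below are members that passed in limma. The number of all tested genes that passed in the same fit is given only where 0 members passed, so the other counts have no background beside them. In a fit of only the groups compared, EKO against WT gave 0 on chow at 22 weeks, 0 on WD at 6 weeks and 0 on chow at 6 weeks (17, 19 and 10 at an unadjusted p under 0.05), diet in WT 0 (8 at an unadjusted p under 0.05), duration in WT 2, and the interactions with diet and duration 5 and 10. Where 0 members passed, 11, 9, 9 and 0 of all tested genes did, in the order named. With the macrophage term, EKO against WT gave 0 on WD at 22 weeks, on chow at 22 weeks and on WD at 6 weeks (12, 4 and 14 at an unadjusted p under 0.05, while 11, 11 and 7 of all tested genes passed). EKO/hA-I against EKO at 22 weeks gave 11 on WD and 1 on chow, EKO/hA-I against WT 0 (7 unadjusted), diet 5 in EKO, 4 in EKO/hA-I and 0 in WT (7 unadjusted), duration in EKO 0 (14 unadjusted), and the interactions 5 and 1. For EKO/hA-I against WT, diet in WT and duration in EKO, 88, 13 and 12 of all tested genes passed. With brown adipocyte and skeletal muscle terms, EKO against WT on WD at 6 weeks gave 3, EKO/hA-I against EKO on chow at 22 weeks 2, and EKO/hA-I against WT, diet in EKO/hA-I and duration in WT each 0 (10, 4 and 5 unadjusted). Where 0 members passed, 331, 2 and 4 of all tested genes did. The term for libraries without Y-linked transcripts gave 7 for EKO/hA-I against EKO on chow at 22 weeks, and rescaling 2 for EKO against WT on chow at 6 weeks. With the replicate number as a block, EKO against WT on chow at 6 weeks gave 2 and diet in WT 2, and no other comparison's count moved by over 1.5 times. Sgsh then passed between EKO and WT on WD at 22 weeks (adjusted p = 0.035), while Scarb2 over time in WT (0.053) and Laptm4a between EKO/hA-I and EKO on chow at 22 weeks (0.051) did not.

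Leaving out each library in turn, EKO against WT gave 23 to 27 on WD and 8 to 17 on chow at 22 weeks, and 1 to 16 on WD and 0 to 4 on chow at 6 weeks. EKO/hA-I against EKO gave 24 to 29 on WD and 2 to 9 on chow at 22 weeks, and 0 to 0 on both diets at 6 weeks. EKO/hA-I against WT gave 0 to 6. Diet gave 0 to 2 in WT, 21 to 24 in EKO and 5 to 13 in EKO/hA-I, and duration 0 to 6 in WT, 19 to 22 in EKO and 0 to 0 in EKO/hA-I. The interactions gave 8 to 17 with diet and 10 to 19 with duration. For the EKO minus WT difference on WD at 22 weeks, the sign turned with the macrophage term for Gnptg (-0.01), Ids (0.35), Hgsnat (-0.28), Abca2 (0.10) and Naaa (-0.25, from 0.49), and with the brown adipocyte and skeletal muscle terms for Idua (-0.02), whose values with 1 library left out ran from -0.03 to 0.12. Mfsd8 turned to -0.19 for diet in EKO/hA-I with the latter terms. Of 801 values of named members under other settings, 691 kept their sign and their side of the threshold, 100 lost the call, 4 gained one and 6 turned sign. With 1 library left out, 490 of 588 did so, 93 lost the call, 3 gained one and 2 turned sign. The cause of these changes was not tested. With 2 or 3 libraries a group, the number of libraries limits which small differences can pass.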
